A study of Homo sapiens with 15 samples.

Results

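The 10 genes described here are imprinted genes, PEG10, SGCE, PEG3, MEST, H19, IGF2, CDKN1C, MEG3, DLK1 and SNRPN. They were listed by name, and all 10 were found among the 58302 genes of the count tables. RNA-seq libraries of the series are labelled as 5 groups with 3 replicates in each. The libraries analysed here are the 3 of C4-2B, an established prostate adenocarcinoma line derived from LNCaP and labelled wild type, grown in RPMI with serum, which the study uses as the parent of its C4-2BER cells. The other 4 groups (DKD_scr, DKD_siPax5, ER_scr and ER_SiPax5, all labelled neuroendocrine like, as controls or with Pax5 knocked down by siRNA) were not analysed here, so no comparison between groups was made. All values are from 1 cell line, and the labels do not say whether the replicates were separate cultures, so that the spread given may be technical.

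An imprinted gene is transcribed mainly from the copy inherited from one parent, and the choice is held by DNA methylation at a control region that serves a cluster of genes. PEG10, SGCE, PEG3, MEST, IGF2, DLK1 and SNRPN are known as paternally expressed, and H19, CDKN1C and MEG3 as maternally expressed. Many of them act in fetal growth and placenta, and imprinting can be lost in tumors. PEG10 is a domesticated retrotransposon gene that is tied to neuroendocrine prostate cancer. Counts per gene carry no information on the parental copy, so the imprinting of these genes was not measured.

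The 3 libraries held from 44992971 to 49569026 counts in genes. The labelled cell type was checked against marker genes. All 6 luminal markers were high, from KRT8 at 197 TPM (a count divided by the gene's exon length and scaled to the same total in every library, so that levels can be compared between genes) to KLK2 at 321 TPM and KLK3 at 1988 TPM. The 4 neuroendocrine markers lay between 0.0187 TPM (SNAP25, with 3 counts in replicate 2 and 0 in the other libraries) and 1.38 TPM (CHGA), with SYP at 1.30 TPM and CHRNB2 at 1.11 TPM. Among these 4, 3 were at 1 TPM or more in all libraries (75.0%, against 61.2% of protein-coding genes). Of 5 markers of other cells, PTPRC had 2 counts over the 3 libraries, KRT5 had 1, PECAM1 was at 0.0396 TPM and COL3A1 at 0.389 TPM. COL1A1, a collagen of fibroblasts, was at 7.09 ± 0.581 TPM (SD, n = 3), and its part in the values below was not tested.

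The sequences that the loci offer for reading are given first, to show what lies at genes that were on and at genes that were off. The windows are the 250 bases before a RefSeq start site (GRCh38.p14), written 5′ to 3′ on the strand of the gene, and capitals mark each CG, the dinucleotide at which imprints are written. The MEST window (chr7:130491835-130492084, plus strand) holds 20 CG, the H19 window (chr11:2001267-2001516, minus strand) holds 4, and the MEG3 window (chr14:100825858-100826107, plus strand) holds 13.
MEST: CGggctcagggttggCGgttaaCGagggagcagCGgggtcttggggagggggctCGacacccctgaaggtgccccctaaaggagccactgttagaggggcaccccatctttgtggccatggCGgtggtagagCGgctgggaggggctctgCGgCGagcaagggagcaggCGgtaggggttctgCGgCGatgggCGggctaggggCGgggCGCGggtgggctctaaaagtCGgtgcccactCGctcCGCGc
H19: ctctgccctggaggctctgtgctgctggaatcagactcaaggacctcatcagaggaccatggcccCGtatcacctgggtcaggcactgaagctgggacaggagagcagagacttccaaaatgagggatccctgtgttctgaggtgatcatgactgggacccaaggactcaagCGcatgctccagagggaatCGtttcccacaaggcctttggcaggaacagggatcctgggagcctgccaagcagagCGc
MEG3: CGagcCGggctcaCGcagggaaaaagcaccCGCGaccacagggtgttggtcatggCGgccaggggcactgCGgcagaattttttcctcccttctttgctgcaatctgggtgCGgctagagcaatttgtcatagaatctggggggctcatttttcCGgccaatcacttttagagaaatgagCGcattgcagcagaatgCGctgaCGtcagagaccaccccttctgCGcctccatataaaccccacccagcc

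Across 35116 windows of the same length the median was 11 CG. MEST had the highest mean of the 10 genes, H19 was low and MEG3 was close to 0. The windows shown for MEST and MEG3 lie above the median and the only H19 window below it. For MEST and MEG3 the window shown was picked for its high CG count, so their place above the median was favoured by that choice. Of the H19 window, 204 bases lie in H19 exons of the deposited annotation. RefSeq lists 5 start sites for MEST with 9 to 20 CG before them, 3 for MEG3 with 11 to 13, and 4 for SNRPN with 1 to 12. The motif TGCCGC, the recognition sequence of the imprint-protecting factor ZFP57, was searched on both strands. It occurs 1 time in the MEG3 window and 0 times in the windows shown for MEST and H19. Before starts whose windows are not shown, it occurs 1 time for MEST, at 130486347 on chromosome 7, also with 20 CG. For SNRPN it occurs 2 times before the start at 24954987 on chromosome 15 and 1 time before that at 24956300. Of all windows, 12.7% hold TGCCGC. The motif AAGATGG, the core of YY1 sites, occurs 1 time in the MEST window and in 3.70% of all windows. Start windows were matched for 4 of the 10 genes, MEST, H19, MEG3 and SNRPN.

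Some of the genes also carry microRNAs in their transcripts. Mature sequences are shown with the seed (bases 2 to 8), which pairs with targets, in capitals.
miR-335-5p: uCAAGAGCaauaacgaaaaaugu
miR-335-3p: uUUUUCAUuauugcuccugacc
miR-675-5p: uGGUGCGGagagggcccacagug
miR-675-3p: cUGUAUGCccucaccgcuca
miR-770-5p: uCCAGUACcacgugucagggcca

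The 5 seeds differ from one another. MIR335 lies in an intron of MEST (hairpin with 0 of 94 bases in MEST exons), MIR675 lies wholly in an H19 exon (73 of 73 bases), and MIR770 lies in an intron of MEG3 (0 of 98 bases). The 3 hairpin genes had 0 counts in the 3 libraries. For MIR675 and MIR335 this carries no information on transcription. All bases of MIR675 lie under an exon of H19 and all bases of MIR335 under an exon of ENSG00000270823, and reads that touch both genes of such a pair were left out of the counts. Mature microRNAs are too short for this kind of library, so a row at 0 says nothing of the mature form.

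The 10 genes fell on either side of 1 TPM, the level chosen as a minimum. MEST, SNRPN, CDKN1C, PEG3 and PEG10 were at 1 TPM or more in every library, and H19, SGCE, IGF2, MEG3 and DLK1 were below it in every library. That is 5 of 10 genes, against 32.8% of all genes of the tables and 61.2% of protein-coding genes at this level. All 5 were protein-coding, out of 8 protein-coding members, a share near the 61.2% of all protein-coding genes. Neither long non-coding RNA (H19, MEG3) reached this level, where 22.35% of long non-coding RNA genes did. Across this level, the lowest PEG10 library was at 2.25 TPM and the highest H19 library at 0.684 TPM. This step was 5.82-fold in mean TPM and was not the widest, as that from IGF2 to MEG3 was 33.1-fold. The median over the 10 genes was 1.597 TPM. It lay above the median over all genes, 0.171 TPM, and below that over protein-coding genes, 5.88 TPM.

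**Figure D1:**
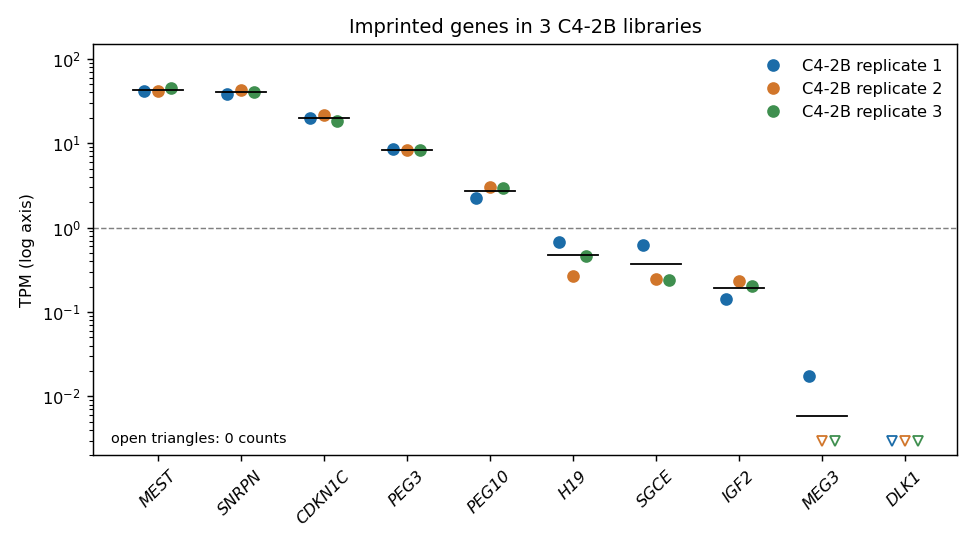
TPM (log axis) of the 10 imprinted genes in each of the 3 C4-2B libraries (points), with the mean as a bar and a dashed line at 1 TPM; open triangles at the bottom are libraries with 0 counts. The upper 5 genes run from MEST at 43.0 TPM to PEG10 at 2.73 TPM, and the lower 5 lie under 0.7 TPM in every library.

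MEST encodes a hydrolase-fold protein of the endoplasmic reticulum and was the highest of the 10. Its gene (ENSG00000106484, chromosome 7, 130486171 to 130506296, plus strand) had 2816, 3104 and 3070 counts in replicates 1, 2 and 3, or 41.9, 42.1 and 44.9 TPM. The mean was 43.0 ± 1.65 TPM (SD, n = 3), above 82.6% of protein-coding genes. SNRPN (ENSG00000128739, chromosome 15, 24823637 to 24978723, plus strand) encodes SmN, a core protein of spliceosomal snRNPs that is abundant in brain. It had 1641, 1984 and 1765 counts, or 38.6, 42.6 and 40.8 TPM, with a mean of 40.7 ± 1.96 TPM (SD, n = 3). The library ranges of MEST and SNRPN overlap, and MEST was the higher of the pair in 2 of 3 libraries, so their order is not settled.

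CDKN1C encodes p57, an inhibitor of cyclin-dependent kinases that restrains growth. Its gene (ENSG00000129757, chromosome 11, 2883213 to 2885881, minus strand) had 754, 888 and 696 counts, or 20.1, 21.6 and 18.2 TPM, with a mean of 19.97 ± 1.68 TPM (SD, n = 3). All 3 libraries lay below those of SNRPN. PEG3 (ENSG00000198300, chromosome 19, 56810083 to 56840728, minus strand), a large zinc finger protein, had 1152, 1219 and 1152 counts, or 8.56, 8.25 and 8.40 TPM. Its mean of 8.41 ± 0.156 TPM (SD, n = 3) had the smallest relative spread of the 9 genes with counts, a CV of 1.85%.

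PEG10 was the lowest of the 5 genes that were on. Its gene (ENSG00000242265, chromosome 7, 94656325 to 94669695, plus strand) had 218, 321 and 288 counts, or 2.25, 3.02 and 2.92 TPM. The mean was 2.73 ± 0.417 TPM (SD, n = 3), lower than that of PEG3 in every library and above 44.1% of protein-coding genes. Replicate 1 was the low library. By level, the 4 protein-coding genes nearest to PEG10 were OR2B2, GALR3, PHOSPHO1 and KANK1, all within 0.00351 TPM of its mean. Likeness across replicates of 1 group was not measured.

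The remaining 5 genes had 59 counts or fewer over the 3 libraries. H19 (ENSG00000130600, chromosome 11, 1995163 to 2001470, minus strand), a fetal long non-coding RNA, had 28, 12 and 19 counts, or 0.684, 0.267 and 0.455 TPM. The exact Poisson 95% limits of its 59 counts are 44.9 and 76.1, or 0.352 to 0.596 TPM. Such an interval covers counting error only and is too narrow, as mates of a pair were counted separately. SGCE (ENSG00000127990, chromosome 7, 94585230 to 94656209, minus strand), which encodes epsilon-sarcoglycan of the dystrophin complex, had 23, 10 and 9 counts. That is 0.623, 0.247 and 0.239 TPM, with replicate 1 as the high library. Its mean of 0.370 TPM fell to 0.243 TPM without replicate 1.

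IGF2 (ENSG00000167244, chromosome 11, 2129112 to 2141238, minus strand) encodes insulin-like growth factor 2, a fetal growth factor. It had 13, 23 and 19 counts, or 0.143, 0.231 and 0.205 TPM, and an interval of 0.147 to 0.253 TPM. MEG3 (ENSG00000214548, chromosome 14, 100779410 to 100861031, plus strand), a long non-coding RNA, had 4 counts in replicate 1 and 0 in the other libraries. These 4 counts have an interval of 0.00153 to 0.0144 TPM, and without replicate 1 nothing is left. DLK1 (ENSG00000185559, chromosome 14, 100725705 to 100738224, plus strand), a Notch-related surface protein of fetal tissue, had no count in any library. The limit that a count of 0 allows, 3 counts over the libraries together, is 0.0125 TPM for its length.

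Of the 9 pairs of neighbours in the order of levels, 6 had library ranges that did not overlap. The exceptions were MEST and SNRPN, H19 and SGCE, and MEG3 and DLK1. The step from SGCE to IGF2 was narrow, with the lowest SGCE library at 0.239 TPM and the highest IGF2 library at 0.231 TPM. Their counts were few, and the interval of SGCE (0.263 to 0.493 TPM) begins just above the end of that of IGF2. Per unshared exon base, explained with the shared exons further on, this step was lost: SGCE was at 0.594, 0.235 and 0.228 TPM and IGF2 at 0.234, 0.377 and 0.336 TPM, so that SGCE was the higher in 1 of 3 libraries.

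To see how far the libraries differed in these genes, each gene was compared between the 3 libraries by a chi-square test run over all genes with at least 30 counts. Mates of a pair were counted separately, so each chi-square was divided by 2. Of the 8 members with enough counts, 0 passed a Benjamini-Hochberg adjusted p under 0.05, where 0.792% of all tested genes did. Only PEG10 had an unadjusted p under 0.05 (0.0494, adjusted p 0.442), which is 1 of 8 members, against 11.3% of all tested genes. With the chi-square not divided, PEG10, SGCE and CDKN1C passed, 3 of 8 against 17.3% of all tested genes, with adjusted p-values of 0.0218, 0.0418 and 0.0230.

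PEG10 in replicate 1 was 17.4% below the count expected from the library sizes, where counting alone gives an SD of 8.70%. SGCE in the same library was 71.5% above expectation, with a counting SD of 38.6%. The neighbouring pair thus deviated in opposite directions in replicate 1. MEST, SNRPN, CDKN1C and PEG3 stayed within 10% of expectation in every library.

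**Figure D2:**
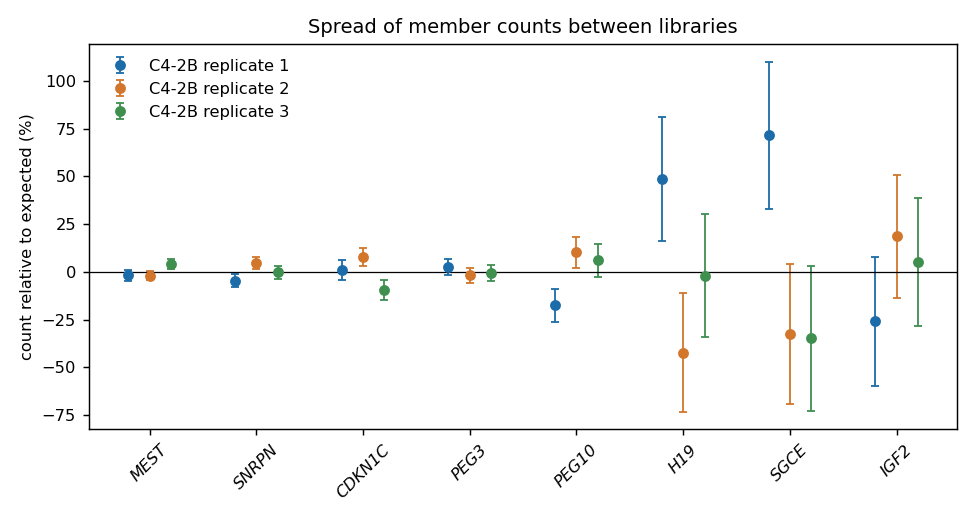
Counts of the 8 members with at least 30 counts, in percent above or below the count expected from TMM-scaled library sizes, for each C4-2B library; bars are 1 SD of counting error with mates taken as pairs. Points of the 4 abundant genes lie within 10% of 0, and those of H19, SGCE and IGF2 spread widely with broad bars.

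In the authors' counting, reads that touched exons of several genes were dropped, so a level can be too low where exons are shared. Such sharing was found for 6 of the 10 genes, against 27.9% of all genes of the tables. For IGF2 41.6% of exon bases are shared, mostly with INS-IGF2 on the same strand (2141 bases), which itself had 0 counts. For SNRPN the share is 39.2%, all on its own strand. SNURF, whose reading frame sits upstream in the same transcript, covers 814 SNRPN bases, ENSG00000214265 covers 541 and SNHG14 covers 141.

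MEST shares 24.7% of its exon bases, all with genes on the opposite strand. The partners are ENSG00000270823 (602 bases), MESTIT1 (484 bases) and COPG2 (59 bases). The libraries were stranded but were counted without strand, so reads from either strand of an unshared exon were assigned to the gene there. PEG3 shares 11.2% with ZIM2, H19 7.54% with MIR675 and a pair of small RNA features, and MEG3 3.18% with 3 non-coding genes. PEG10, SGCE, CDKN1C and DLK1 share none.

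Dividing by unshared exon bases alone gave 63.7 TPM for SNRPN, 54.4 TPM for MEST, 9.02 TPM for PEG3 and 0.315 TPM for IGF2. SNRPN then lay above MEST in every library, with no overlap of their ranges, and the same 5 genes stayed at 1 TPM or more. IGF2 and SNRPN moved by over 1.5 times on this scale, and IGF2 was still under 1 TPM.

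**Figure D3:**
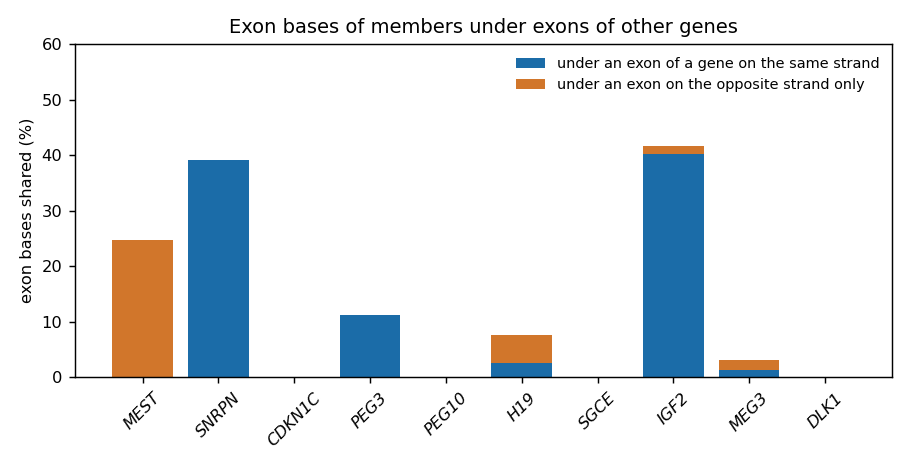
Share of each member's exon bases (percent) that lie under exons of other genes in the deposited annotation, split by whether the other gene is on the same strand or only on the opposite one. IGF2 at 41.6% and SNRPN at 39.2% share most, and 4 genes share none.

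Each member was then set beside its neighbours at 7 imprinted loci. Of 49 other listed genes found there, 24 were at 1 TPM or more in all libraries, 49.0%. Over all genes of the tables the share was 32.8%, and over protein-coding genes 61.2%. Several of these neighbours are not imprinted, and the list was chosen with results of these libraries known.

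At 7q21, the SGCE start lies at -116 bases from that of PEG10, on the opposite strand. PEG10 was above SGCE in every library, by 3.61-fold, 12.2-fold and 12.2-fold in TPM, a mean of 9.34 ± 4.96 (SD, n = 3). CASD1, an acetyltransferase of sialic acids next to SGCE, was at 18.3 ± 1.22 TPM, and PPP1R9A, a neuronal actin-binding protein, was at 2.79 ± 0.0928 TPM (SD, n = 3 each). The library ranges of PPP1R9A and PEG10 overlapped, and PEG10 was the higher in 2 of 3 libraries. PON2 was the highest gene listed there at 47.1 ± 0.648 TPM, whereas its relatives PON1 and PON3 were at 0.179 and 0.0160 TPM.

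At 7q32, MEST was 1.15 ± 0.0264 times COPG2 (SD, n = 3), a coat protein gene that ends against it on the other strand and was at 37.3 ± 0.578 TPM. MESTIT1, an antisense RNA over the first part of MEST, was at 1.78 ± 0.502 TPM and replicate 3 was its high library. MEST was 25.2 ± 5.55 times as high as MESTIT1 (SD, n = 3). Strand was not used in counting, so reads of unspliced MEST RNA could enter the MESTIT1 row, and their share was not tested. CEP41, a centrosomal protein gene, was at 5.95 ± 0.0895 TPM (SD, n = 3). CPA4 and KLF14, which are imprinted in some tissues, had 2 and 14 counts.

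Chromosome 11p15 holds a pair of imprinted domains, whose listed genes differed in level. In the domain of H19 and IGF2 (IC1), INS, INS-IGF2, IGF2-AS, MIR483 and MIR675 had 0 counts in all libraries. The zeros of MIR483 and MIR675 say nothing of the mature forms, and MIR675 lies wholly under an H19 exon. For INS-IGF2 and INS, 72.2% and 31.7% of exon bases are shared, and reads over exons of several genes were not counted. TH had 27 counts, and MRPL23, a mitochondrial ribosomal protein next to H19, was at 11.4 ± 1.07 TPM (SD, n = 3). In the domain of CDKN1C (IC2) all 8 other listed genes were at 1 TPM or more. PHLDA2, a growth-restraining gene of placenta, was at 206 ± 3.86 TPM and 10.4 ± 0.726 times CDKN1C, and CD81 was at 107 ± 2.56 TPM (SD, n = 3 each). KCNQ1OT1, the long RNA that silences this domain on the paternal copy, was at 2.76 ± 0.128 TPM from 11446 counts (SD, n = 3). Its row lies within KCNQ1, which is on the opposite strand and was at 4.13 ± 0.347 TPM (SD, n = 3). Strand was not used in counting, so reads of unspliced KCNQ1 RNA could enter the KCNQ1OT1 row, and their share was not tested.

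At 14q32 most of the imprinted genes had few or no reads. Besides DLK1 and MEG3, RTL1 and MEG9 had 0 counts, MEG8 had 4, all in replicate 3, and DIO3OS had 11. DIO3, a deiodinase that inactivates thyroid hormone, was at 0.731 ± 0.167 TPM, BEGAIN was at 0.865 ± 0.00360 TPM, and WDR25, upstream of DLK1, was at 5.95 ± 0.0245 TPM (SD, n = 3 each). The interval from WDR25 to DIO3 holds 54 microRNA and 47 snoRNA rows, and all of them had 0 counts. Of its 133 rows in all, 122 had 0 counts in the 3 libraries, against 21278 of all 58302 genes of the tables. Most of these 122 are the microRNA and snoRNA rows. A microRNA row at 0 says nothing of the mature form, and reads mapping to several places were not counted, which can lower snoRNA rows.

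At 15q11, by contrast in levels, most listed genes had many reads. NDN, a growth suppressor of neurons, was at 69.1 ± 1.80 TPM and 1.70 ± 0.127 times SNRPN (SD, n = 3 each). Per unshared exon base this ratio was 1.04 ± 0.0770 (SD, n = 3), and NDN was the higher in 2 of 3 libraries. SNHG14, the long host transcript of snoRNAs downstream of SNRPN, was at 30.2 ± 0.353 TPM from 59175 counts, and PWAR5 within it was at 57.3 ± 2.79 TPM (SD, n = 3 each). The SNHG14 row runs into that of UBE3A, which is on the opposite strand. As counting ignored strand, reads of unspliced UBE3A RNA could enter the SNHG14 row. Reads of unspliced SNHG14 RNA could likewise enter the PWAR5 and snoRNA rows within it, and neither share was tested. SNURF, of whose exon bases 69.3% are shared, was at 4.90 ± 0.0731 TPM (SD, n = 3). UBE3A, a ubiquitin ligase that is imprinted in neurons, was at 48.2 ± 0.752 TPM and MKRN3 was at 7.40 ± 0.335 TPM (SD, n = 3 each). MAGEL2, NPAP1 and PWRN1 had 34, 4 and 0 counts. The interval holds 84 snoRNA rows, of which 54 had 0 counts and 23 had counts in every library, 1767 counts in all. Many of these snoRNAs are near-identical copies, and reads that map to several places were not counted, so these rows are uncertain.

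At 19q13, PEG3 and ZIM2 share their start and first exons, and MIMT1 starts 174 bases away on the other strand. ZIM2 had 14, 4 and 6 counts, or 0.191 ± 0.133 TPM (SD, n = 3), and 37.4% of its exon bases are shared. MIMT1, USP29 and ZIM3 had 0 counts. ZNF264, a zinc finger gene further along, was at 16.9 ± 1.08 TPM (SD, n = 3), above PEG3.

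**Figure D4:**
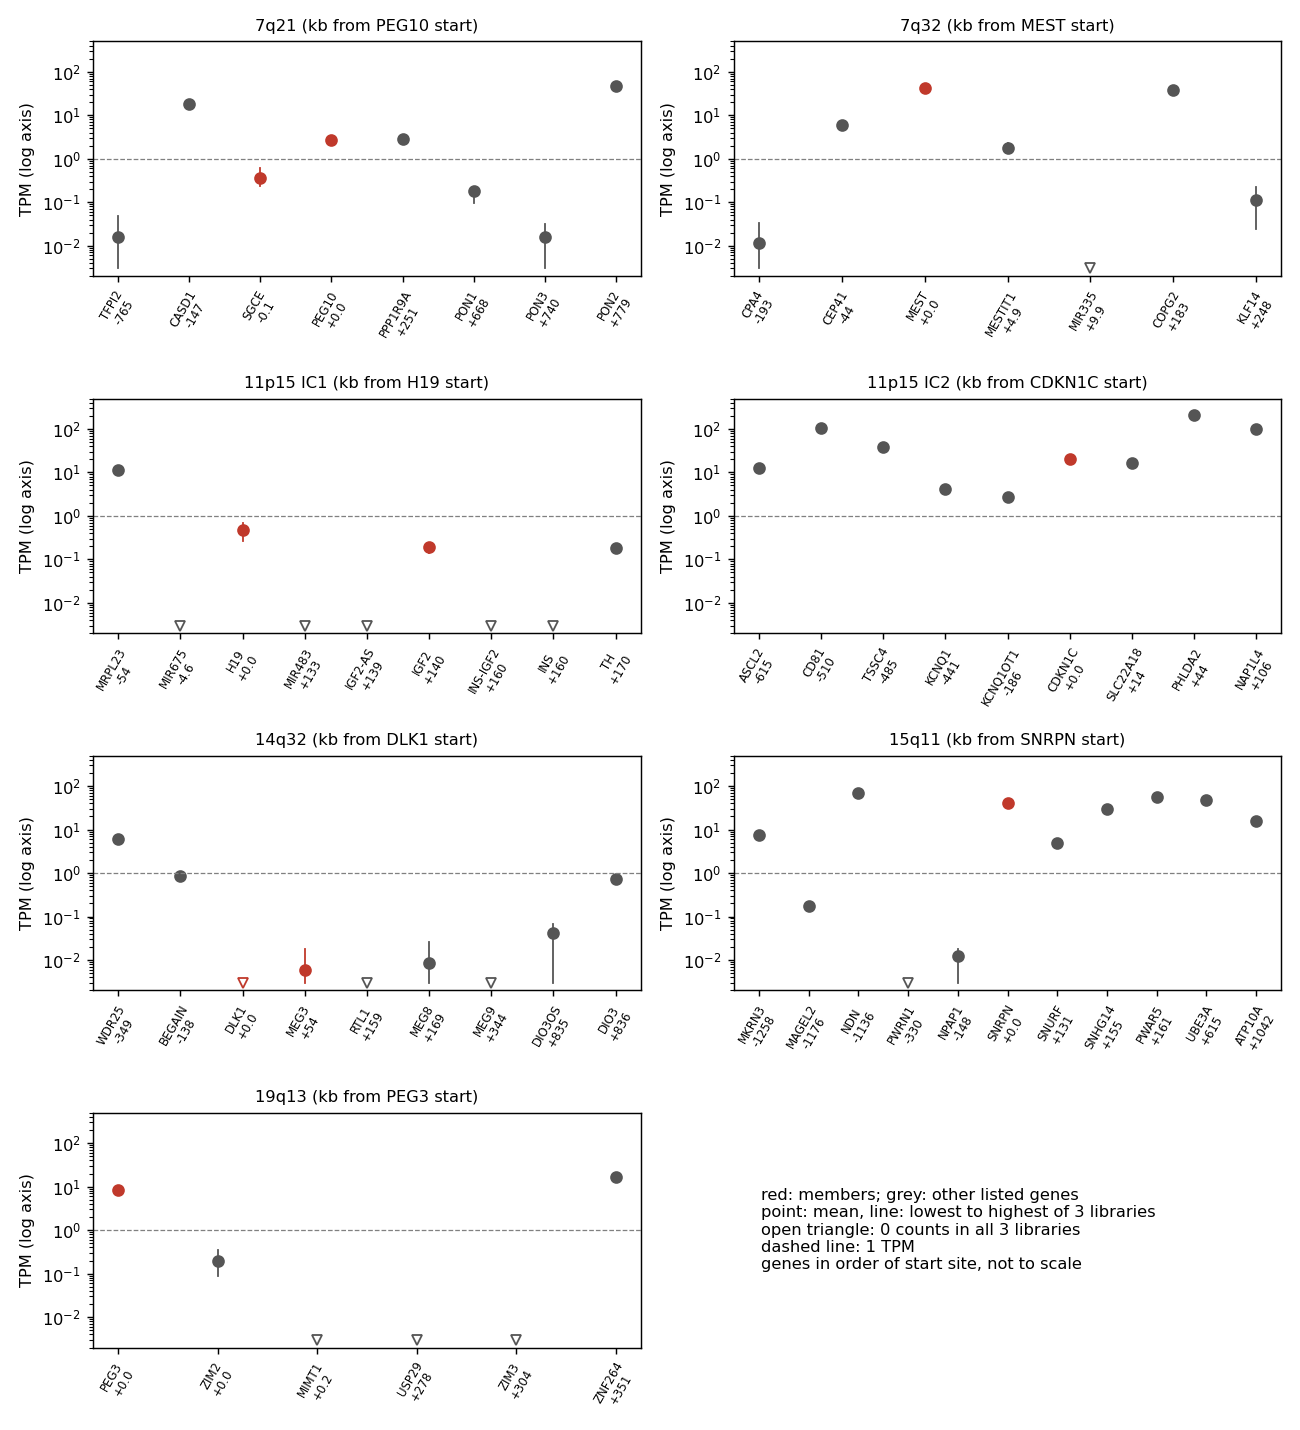
Mean TPM (log axis) of members (red) and other listed genes (grey) at 7 imprinted loci, ordered by start site, with the distance from one member in kb under each name; lines run from the lowest to the highest library, down to the axis floor where a library had 0 counts, and open triangles are genes at 0 in all 3 libraries. CDKN1C at 19.97 TPM lies among 8 genes that are all above 1 TPM. DLK1 and MEG3 lie near 0, among 7 other listed genes of which WDR25 alone is above 1 TPM.

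Of 17 other imprinted genes listed outside these loci, 15 were at 1 TPM or more, with a median of 5.55 TPM. That is 88.2%, against 32.8% of all genes and 61.2% of protein-coding genes. Whether these 17 genes are imprinted in C4-2B cells was not measured. The list was chosen with earlier results of these data known, so this share describes the listed genes alone. GNAS, which encodes the stimulatory G protein alpha subunit, was highest at 149 ± 1.84 TPM, followed by IGF2R at 79.9 ± 1.75 TPM and GRB10, an adaptor that restrains insulin signalling, at 47.5 ± 1.00 TPM (SD, n = 3 each). HYMAI and DIRAS3 were below 1 TPM, at 0.338 and 0.191 TPM.

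RNA of the factors that hold imprints was detected at 1 TPM or more, with 1 exception. Of 9 listed, 8 were at 1 TPM or more (88.9%, against 61.2% of protein-coding genes), with a median of 48.3 TPM. TRIM28, the corepressor recruited by KRAB zinc finger proteins, was highest at 430.0 ± 4.79 TPM, and the maintenance methyltransferase DNMT1 was at 112 ± 1.54 TPM (SD, n = 3 each). ZFP57, the zinc finger protein that guards imprints in early embryos and whose motif was searched above, had 2 counts in all, both in replicate 3. ZNF445, which shares this task, was at 12.9 ± 0.149 TPM (SD, n = 3).

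The insulin-like growth factor system was examined because IGF2 is its fetal ligand. Of 12 listed genes, 8 were at 1 TPM or more (66.7%), near the 61.2% of protein-coding genes. The receptors were far above the ligand, with IGF1R at 77.0 ± 0.283 TPM and INSR at 24.2 ± 0.290 TPM (SD, n = 3 each). IGF2R, which clears IGF2 from the cell surface, was 432 ± 122 times IGF2, or 252 ± 70.9 times per unshared exon base (SD, n = 3 each). The sister ligand IGF1 was at 5.30 ± 0.210 TPM, 28.5 ± 7.14 times IGF2 (SD, n = 3 each), and 97.0 ± 24.3 times per unshared exon base, as 82.8% of IGF1 exon bases are shared with other genes. IGFBP2 was the highest binding protein at 77.5 ± 2.81 TPM, while IGFBP4, IGFBP5 and IGFBP6 were below 1 TPM. Of the mRNA-binding proteins named for IGF2, IGF2BP3 was at 7.37 ± 0.369 TPM, IGF2BP2 at 3.86 ± 0.103 TPM and IGF2BP1 at 0.0929 ± 0.0250 TPM (SD, n = 3 each).

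Of 14 listed relatives of the members, 10 were at 1 TPM or more (71.4%, against 61.2% of protein-coding genes). SNRPB, the general counterpart of SNRPN in the same protein position of the snRNP, was at 370 ± 9.66 TPM and 9.12 ± 0.618 times SNRPN, or 6.94 ± 0.471 times per unshared exon base (SD, n = 3 each). The CDKN1C paralogs CDKN1A (p21) and CDKN1B (p27) were at 136 ± 3.38 and 108 ± 1.505 TPM, or 6.86 ± 0.583 and 5.42 ± 0.504 times CDKN1C (SD, n = 3 each). Of retrotransposon-derived genes of the PEG10 kind, RTL8C and RTL8A were at 122 ± 3.15 and 121 ± 4.76 TPM (SD, n = 3 each). These are near-identical copies whose counts are uncertain. RTL8A was 44.95 ± 6.46 times PEG10 (SD, n = 3), and RTL3, like RTL1 at 14q32, had 0 counts. Among sarcoglycans, SGCB was at 12.2 ± 0.902 TPM (SD, n = 3) and was above SGCE in every library, while SGCA and SGCD had 12 and 2 counts. DLK2, the paralog of DLK1, was at 3.48 ± 0.492 TPM (SD, n = 3).

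**Figure D5:**
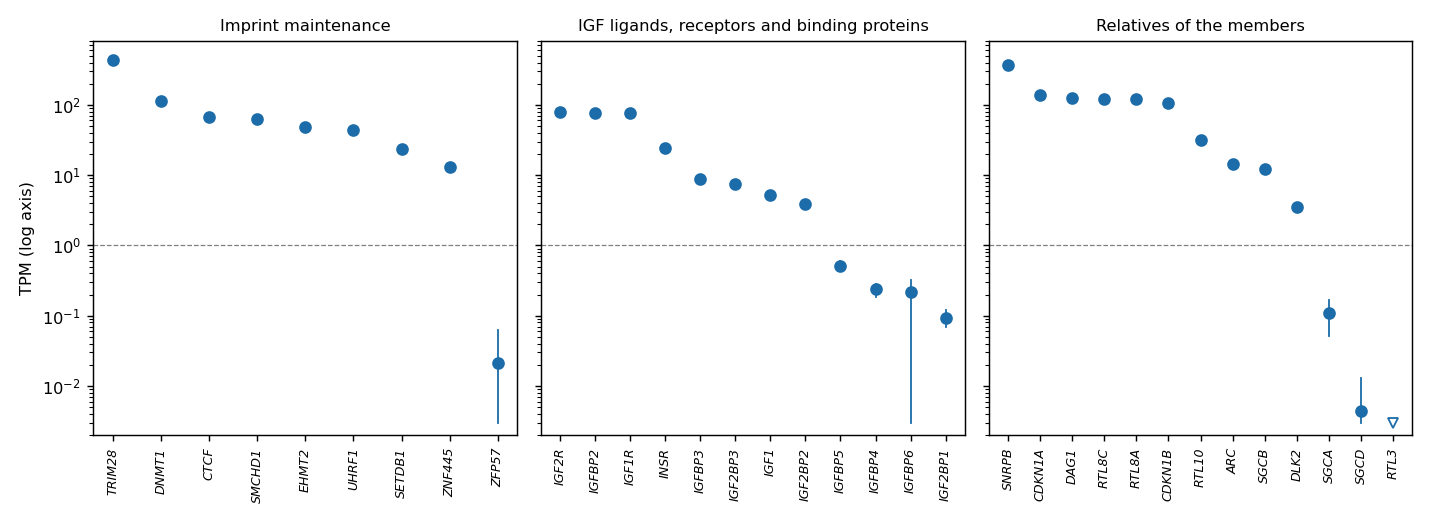
Mean TPM (log axis) of genes that hold imprints, genes of the insulin-like growth factor system and relatives of the members in C4-2B cells, each panel in order of level; lines run from the lowest to the highest library, down to the axis floor where a library had 0 counts, and the open triangle is RTL3 with 0 counts. ZFP57 stands below the other 8 factors, all of which exceed 1 TPM.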

How the data were processed

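Total RNA of C4-2B cells was depleted of ribosomal RNA and made into directional libraries, read as pairs. Per the labels and file headers, the authors trimmed reads (Trim Galore), aligned them with STAR 2.7.0f to GRCh38 and deposited raw counts per gene from featureCounts (Subread 1.6.3, Ensembl release 90). No strand was set and mates were counted separately. Gene length, another value the authors deposited, is the union of exon bases. Total counts were 44992971, 49569026 and 46232076.

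TPM was computed over all genes from counts and deposited length. Symbols were matched for 57532 of 58302 genes and types came from GENCODE 44. Libraries were compared by a chi-square test of each gene against TMM-scaled library sizes (edgeR 4.0.16; DESeq2 1.42.0 size factors as an alternative) with 2 degrees of freedom, at least 30 counts, each chi-square divided by 2 and Benjamini-Hochberg adjustment over 22229 genes. The calculation was run on simulated counts in which each pair was counted as 2, with counting error alone between unchanged libraries. Such counts cannot show whether the divisor holds for the real libraries. Intervals are exact Poisson at 95%.

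The members, lists and tests were chosen with earlier results of these data known, and locus intervals and printed windows after values were seen. All members are named, and of each list the 2 highest genes, those overlapping a member, and paralogs or neighbours; any other gene named was chosen after its values were seen. Of 130 listed genes 126 were found. Listed genes that are not named enter the counts only, and 1 of them is left out of the plot of related genes. Sequences are RefSeq, GRCh38.p14. The other 4 labelled groups were not analysed here.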

Additional observations from a re-analysis of the deposited data

How the results depend on the processing

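The number of members at 1 TPM or more was 5 under every alternative run: CPM, unshared length, a reduced denominator, minima of 0.5 and 2 TPM, and with each replicate left out (5 to 5). The related genes at this level numbered 64, and from 61 to 66 under these alternatives. The median over members was 1.597 TPM, and it was 3.14 with CPM and 2.31 with a denominator without the 10 most abundant and the mitochondrial genes, since both rescale every value. With 1 replicate left out it ran from 1.55 to 1.66 TPM. Pairs set apart in the order numbered 6, or 6 to 7 with 1 replicate left out. With unshared length they numbered 6 as well, but SNRPN and MEST were set apart and SGCE and IGF2 were not. Members that differed between libraries numbered 0, and 3 with the chi-square not divided, a setting that takes mates as separate reads. It was 0 with DESeq2 size factors, total counts, minima of 10 and 1 counts, and each replicate left out, with lowest adjusted p-values from 0.410 to 0.641. Among all genes 176 passed, and 38, 223 and 49 without replicates 1, 2 and 3. Members with shared exon bases numbered 6, or 3 where partners had to have counts in all libraries, because that removes partners without reads. No paired analysis was possible because the groups share replicate numbers but files of C4-2B alone were analysed. With few counts, the order among H19, SGCE and IGF2 is limited by depth.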
